A study of Homo sapiens with 9 samples.

Results

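The 9 genes described here are ALX1, ALX4, SHOX2, PRRX1, PRRX2, PAX9, PAX3, PAX7 and ZIC1, transcription factor genes grouped for their part in the frontonasal region, the tissue of the forehead, nose and midface. They were taken by symbol from the 25593 loci of each deposited table, and all 9 were found once in every table. The libraries come from 9 neural crest-like cultures, 3 in each of 3 expansion media, and all go back to H9, an established line of human embryonic stem cells. All cultures shared the same start: H9 clumps were differentiated for 6 days with 10 µM SB431542, which blocks the kinase of TGF-β, Activin and Nodal receptors, and CD271-high, CD73-negative cells were then sorted and grown on fibronectin under 5% oxygen. Group F_FSB was expanded with FGF2 and SB431542 for 4 passages and then with FGF2 alone for 3 more. Group FSB was kept in FGF2 at 5 to 10 ng/ml with SB431542 at 3 to 5 µM. Group F received FGF2 at the same dose without SB431542 after the sort. All were harvested at passage 6 to 7. The cell type label gives CD73 as positive where the growth protocol gives it as negative. All cultures come from 1 cell line, and cells from the start of expansion are not analysed here, so words such as rose and fell compare groups.

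ALX, PRRX and SHOX proteins bind DNA through a paired-type homeodomain. PAX proteins bind it through a paired domain, and PAX3 and PAX7 also carry a homeodomain. PAX9 does not, and ZIC1 is a zinc finger protein, so the group is not one of homeobox genes throughout. Neural crest cells of the head give rise to much of the facial skeleton. Loss of ALX genes in people causes frontonasal dysplasia, a malformation of the midface, and Prrx1 and Prrx2 act together in skull and limb mesenchyme of the mouse. PAX3, PAX7 and ZIC1 are known from the neural plate border, where the crest arises.

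Levels are FPKM, fragments scaled to transcript length and to the mapped fragments of the library, so genes can be compared per length. Depth is known only in relative terms, from the step that 1 fragment adds to the values of low genes. F_FSB replicate 2 was the shallowest, at 57.4% of the depth of FSB replicate 1, and the remaining libraries lay between 80.1% and 100%. A gene was tested when it reached 1 FPKM in at least 3 of the 9 libraries, which 13216 genes did. ALX1, ALX4, PRRX1, PRRX2 and PAX9 passed, and SHOX2, PAX3, PAX7 and ZIC1 did not. Differences are on the scale of log2(FPKM + 1), which understates the change of low genes, and were tested with limma over all 13216 genes with Benjamini-Hochberg (BH) adjustment at a threshold of 0.05. Nothing in the labels says from how many sorts or differentiations the cultures came beyond calling them biological replicates, so p-values measure the spread between these cultures. Each library was also set against the mean of the other 2 of its group. The median absolute difference over genes tested was 0.114 in FSB replicates 1 and 2 and 0.150 in FSB replicate 3. In F_FSB and F it lay between 0.140 and 0.187. Whether FSB replicates 1 and 2 are more closely related cultures was not tested. If they are, the spread within FSB may be understated.

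2 libraries stood apart within their groups in genes that bear on the members. FSB replicate 3 had 1.69 FPKM of SOX10, a crest and glial factor, against 0.0993 and 0.0518 in FSB replicates 1 and 2. It also had 5.15 FPKM of the pigment cell gene PMEL, against 1.44 and 1.01. Other crest genes went both ways in FSB replicate 3. ETS1 was highest of FSB there, at 71.9 FPKM against 47.6 and 48.9. SOX8 was lowest of FSB there, at 5.30 FPKM against 10.7 and 9.75. So were SOX9, at 22.2 FPKM against 43.7 and 36.5, and NGFR, at 104 FPKM against 134 and 123. F_FSB replicate 3 had 40.8 FPKM of PITX1, 20.2 of HAND2, 80.5 of DLX5 and 37.1 of DLX6, transcription factor genes of the jaw and limb. No other library exceeded 1.45 FPKM of PITX1, 0.424 of HAND2, 10.2 of DLX5 or 5.43 of DLX6. These genes were singled out after their values were seen, and their part in the results below was not tested. The calls of ALX1 and ALX4 are given with and without these libraries.

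**Figure D1:**
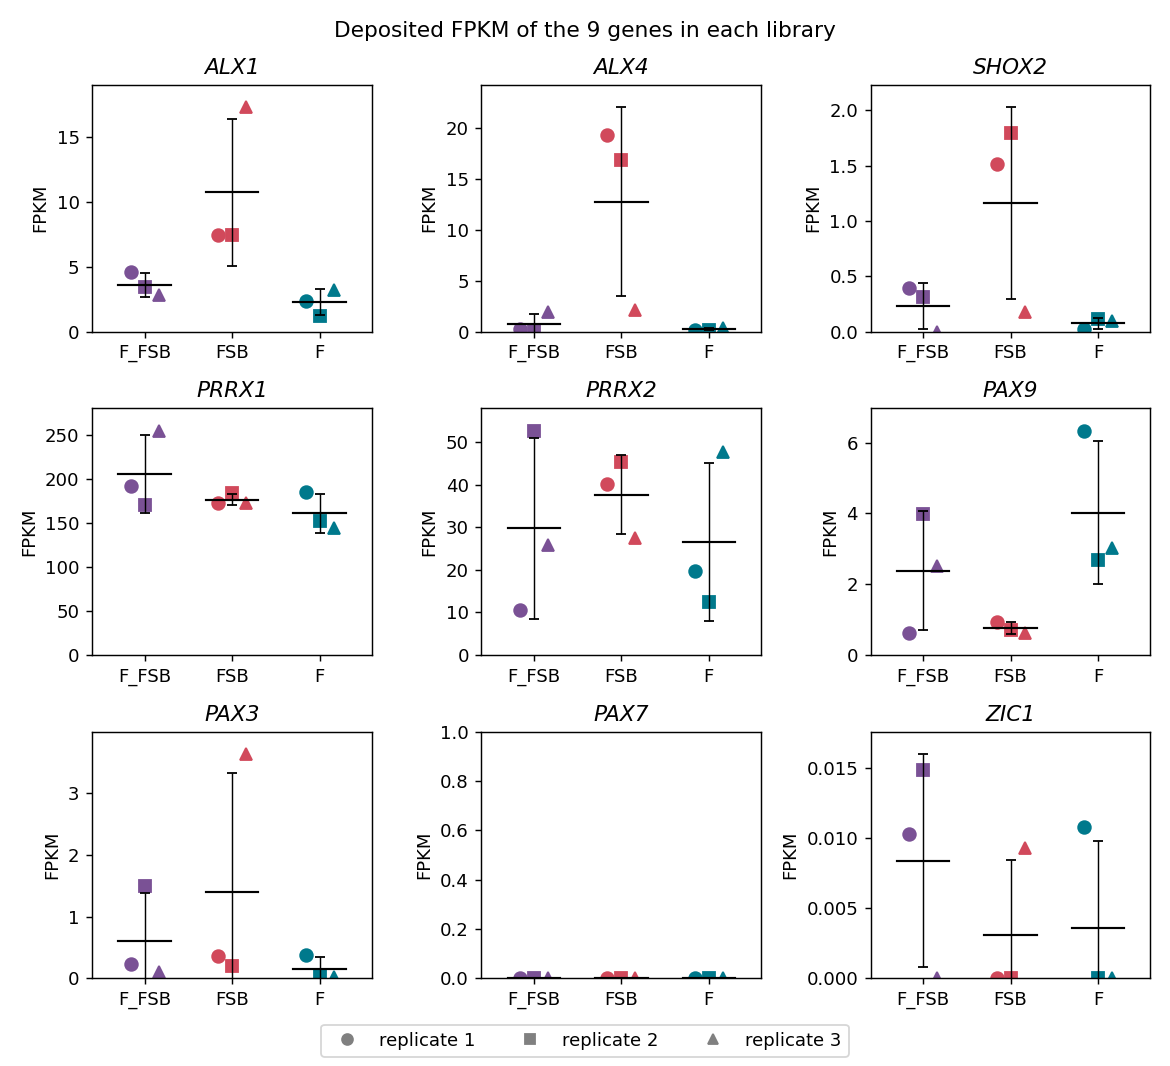
FPKM of the 9 genes in each library (y axes, linear, a different range per gene) for F_FSB, FSB and F, 3 replicates each; lines are group means and bars 1 SD, cut at 0 where they would pass below it. ALX1 and ALX4 are higher in every FSB library than in any other, PRRX1 lies between 144 and 255 FPKM throughout, and PAX7 is at 0 in all 9.

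The 2 ALX genes were high where the inhibitor was present. ALX1 (chromosome 12, 85674036 to 85695562, GRCh37) stood at 4.62, 3.43 and 2.80 FPKM in F_FSB replicates 1, 2 and 3, at 7.47, 7.45 and 17.3 FPKM in FSB and at 2.34, 1.23 and 3.24 FPKM in F. The FSB libraries lay above all the others, and those of F_FSB and F overlapped. The ALX1 value of FSB replicate 3 lay above the upper bound, 17.0 FPKM, of the interval that Cufflinks gave for it. The means were 3.61 ± 0.925 FPKM in F_FSB, 10.7 ± 5.68 in FSB and 2.27 ± 1.01 in F (SD, n = 3 each). ALX1 fell by 1.26 in F_FSB relative to FSB (SE 0.35; limma, BH-adjusted p = 0.0205) and was higher by 1.79 in FSB than in F (SE 0.35; limma, BH-adjusted p = 0.00509), a ratio of means of 4.73. Without F_FSB replicate 3 the difference between F_FSB and FSB was -1.13, with a BH-adjusted p (limma) of 0.0633, and the call was lost. Without FSB replicate 3, where ALX1 was highest, the differences were -0.89 for F_FSB minus FSB and 1.42 for FSB minus F, and both calls held (limma, BH-adjusted p = 0.0437 and 0.0095).

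ALX4 (chromosome 11, 44282278 to 44331716) moved further and was less even. It stood at 0.276, 0.0142 and 1.90 FPKM in F_FSB replicates 1, 2 and 3, at 19.3, 16.8 and 2.15 FPKM in FSB and at 0.165, 0.164 and 0.384 FPKM in F. FSB replicate 3 was close to F_FSB replicate 3, while the other FSB libraries were far above every library of the other groups. The means were 0.729 ± 1.02 FPKM in F_FSB, 12.8 ± 9.28 in FSB and 0.238 ± 0.127 in F (SD, n = 3 each), a ratio of 53.8 between FSB and F. ALX4 fell by 2.75 in F_FSB relative to FSB (SE 0.70; limma, BH-adjusted p = 0.0143) and was higher by 3.08 in FSB than in F (SE 0.70; limma, BH-adjusted p = 0.00935). Without F_FSB replicate 3 the difference between F_FSB and FSB was -3.20, and the call held (limma, BH-adjusted p = 0.0151). Without FSB replicate 3 the differences for F_FSB minus FSB and FSB minus F were -3.62 and 3.95 (limma, BH-adjusted p = 0.00167 and 0.00127). Without FSB replicate 1 or 2 the difference between F_FSB and FSB was -2.27 or -2.36, with BH-adjusted p (limma) of 0.0543 and 0.0564, and the call was lost. ALX4 reached 1 FPKM in 4 libraries, of which 3 were FSB, so it was tested only because of the group where it was high. Its p-values are therefore given as description and not as support. In these bulk libraries, fewer cells with ALX1 or ALX4 transcripts and less of that RNA per cell cannot be told apart.

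The balance of ALX1 and ALX4 also differed between libraries. ALX4 made up 5.64%, 0.412% and 40.4% of their sum in F_FSB replicates 1, 2 and 3, 72.1%, 69.3% and 11.0% in FSB and 6.59%, 11.8% and 10.6% in F. ALX4 exceeded ALX1 only in FSB replicates 1 and 2, at 2.59 and 2.26 times its level, and was 0.124 times ALX1 in FSB replicate 3. The sum of the pair was 4.34 ± 0.789 FPKM in F_FSB, 23.5 ± 3.73 in FSB and 2.51 ± 1.12 in F (SD, n = 3 each). Within FSB it was 26.8, 24.3 and 19.4 FPKM, with a coefficient of variation of 15.9%, against 52.9% for ALX1 and 72.7% for ALX4 alone. In F_FSB the coefficient was 18.2% for the sum, 25.6% for ALX1 and 140% for ALX4. In F the sum was no more even than ALX1, at 44.5% against 44.4% for ALX1 and 53.4% for ALX4. This sum was formed after the values were seen and was not tested.

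**Figure D2:**
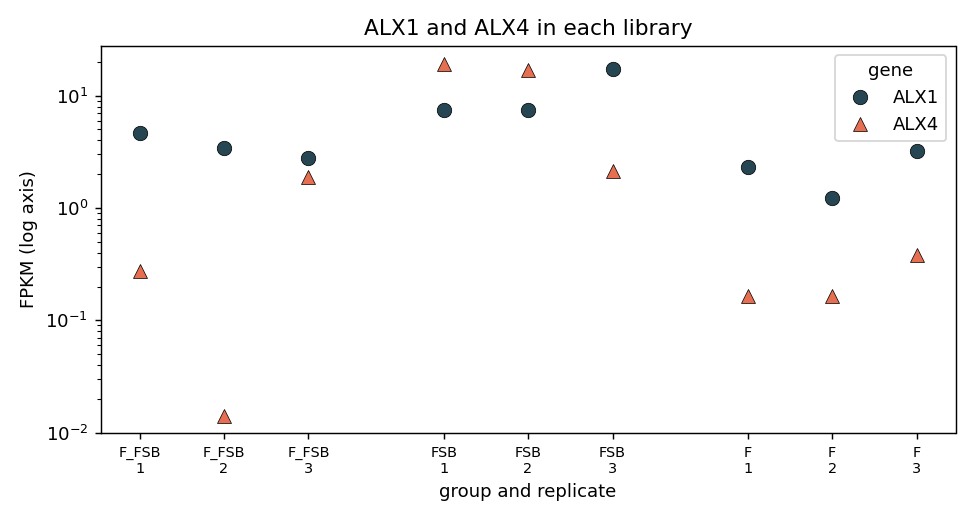
FPKM of ALX1 and ALX4 (log y axis) in each library of F_FSB, FSB and F. ALX4 lies above ALX1 in FSB replicates 1 and 2, at 19.3 and 16.8 FPKM, and below it in the other 7 libraries, FSB replicate 3 included, at 2.15 FPKM.

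SHOX2 (chromosome 3, 157813800 to 157823952), a homeobox gene of the palate, limb and cardiac pacemaker, was low. It stood at 0.392, 0.308 and 0 FPKM in F_FSB, at 1.51, 1.80 and 0.176 FPKM in FSB and at 0.0186, 0.115 and 0.0946 FPKM in F. Like ALX4 it was lowest within FSB in replicate 3. Every FSB library was above every F library, but FSB and F_FSB overlapped. Only 2 libraries reached 1 FPKM, so SHOX2 was not among the genes tested. When genes reaching 1 FPKM in any 1 library were let in, a choice made after the data were seen, SHOX2 differed by -0.73 between F_FSB and FSB and by 0.91 between FSB and F, with BH-adjusted p (limma) of 0.109 and 0.0547, short of the threshold. The neighbouring gene RSRC1, which GENCODE places on the opposite strand across the start of SHOX2, was at 7.42 ± 1.18 FPKM in F_FSB, 10.6 ± 1.2 in FSB and 7.02 ± 0.101 in F (SD, n = 3 each). RSRC1 was itself higher by 0.53 in FSB than in F (limma, BH-adjusted p = 0.00905), and the sources used here do not say whether reads were split by strand.

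PRRX1 and PRRX2, mesenchymal homeobox genes, were the most abundant members in all 9 libraries, in that order. PRRX1 (chromosome 1, 170633313 to 170708541) stood at 191, 171 and 255 FPKM in F_FSB, at 173, 184 and 173 FPKM in FSB and at 186, 153 and 144 FPKM in F. It exceeded at least 97.4% of the genes tested in each library. All 3 groups overlapped, and the means were 206 ± 43.8 FPKM in F_FSB, 177 ± 6.38 in FSB and 161 ± 21.8 in F (SD, n = 3 each). No comparison passed. The difference was 0.20 for F_FSB minus FSB (95% interval -0.17 to 0.57; limma, BH-adjusted p = 0.355). It was 0.14 for FSB minus F (95% interval -0.23 to 0.51; limma, BH-adjusted p = 0.509) and -0.02 there with scaling by median ratios. The intervals leave room for differences of up to 0.57 and 0.51 in size.

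PRRX2 (chromosome 9, 132427920 to 132484953) varied widely between cultures of one medium. It stood at 10.6, 52.8 and 25.9 FPKM in F_FSB, at 40.3, 45.4 and 27.4 FPKM in FSB and at 19.8, 12.4 and 47.7 FPKM in F. Low and high libraries occurred in both F_FSB and F, and all 3 groups overlapped. The highest library was 4.96 times the lowest in F_FSB, 1.66 times in FSB and 3.85 times in F. The means were 29.8 ± 21.3 FPKM in F_FSB, 37.7 ± 9.29 in FSB and 26.6 ± 18.6 in F (SD, n = 3 each), and no comparison passed (limma, BH-adjusted p = 0.484 for F_FSB minus FSB and 0.41 for FSB minus F). The 95% intervals, -1.97 to 0.84 and -0.73 to 2.07, include differences of 1 or more in size. In 7 libraries the deposited PRRX2 value lay above the upper bound of the interval that Cufflinks gave for it, by up to 1.06 times. PRRX1 was 3.23 to 18.0 times PRRX2 in F_FSB, 4.05 to 6.30 times in FSB and 3.03 to 12.3 times in F.

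PAX9 (chromosome 14, 37126773 to 37147012), a paired-domain gene of tooth, palate and pharyngeal pouch, ran the other way from the ALX genes. It stood at 0.626, 3.99 and 2.53 FPKM in F_FSB, at 0.939, 0.711 and 0.627 FPKM in FSB and at 6.34, 2.67 and 3.04 FPKM in F. FSB was low and even, F was higher in every library, and F_FSB replicate 1 sat at the FSB level while the other F_FSB libraries did not. The means were 2.38 ± 1.69 FPKM in F_FSB, 0.759 ± 0.162 in FSB and 4.01 ± 2.02 in F (SD, n = 3 each). PAX9 fell in FSB relative to F (log2 difference -1.44, SE 0.41; limma, BH-adjusted p = 0.024), a ratio of means of 0.189. PAX9 reached 1 FPKM in 5 libraries, every F library among them, and would not have been tested without F. Its p-values are therefore given as description and not as support. The call was lost without F replicate 1 (difference -1.13) and without FSB replicate 1, 2 or 3 (differences -1.52, -1.43 and -1.39), with BH-adjusted p between 0.056 and 0.069 (limma). F_FSB minus FSB was 0.80 with a BH-adjusted p (limma) of 0.152, short of the threshold, but without F_FSB replicate 1 it was 1.26 and did (limma, BH-adjusted p = 0.0183). GENCODE lists a long noncoding RNA on the opposite strand across the start of PAX9, which has no value here.

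PAX3 (chromosome 2, 223064606 to 223163715), a factor of the neural plate border and the pigment lineage, was detected above 1 FPKM in 2 libraries of different groups. It stood at 0.231, 1.49 and 0.102 FPKM in F_FSB, at 0.363, 0.204 and 3.63 FPKM in FSB and at 0.376, 0.0527 and 0.0168 FPKM in F. The groups overlapped throughout. The high FSB library, replicate 3, is the one with the most SOX10 and PMEL. It also had 0.500 FPKM of CCDC140, which overlaps PAX3 on the opposite strand, against 0 and 0.0614 in FSB replicates 1 and 2. In F_FSB replicate 2, the other library with PAX3 above 1 FPKM, SOX10 was listed at 0 and CCDC140 stood at 0.05 FPKM. MITF, the master regulator of pigment cells, was lowest of the FSB libraries in replicate 3, at 0.779 FPKM against 2.17 and 2.49. The part of pigment or glial cells in the PAX3 values was not tested.

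PAX7 and ZIC1 were near or at 0. PAX7 (chromosome 1, 18957500 to 19075360) was listed at 0 in all 9 libraries, where each of 16 housekeeping genes checked was above 7 FPKM. ZIC1 (chromosome 3, 147127181 to 147134506) was listed at 0 in 5 libraries and stood at 0.0103 and 0.0149 FPKM in F_FSB replicates 1 and 2, at 0.00929 FPKM in FSB replicate 3 and at 0.0108 FPKM in F replicate 1. Multiplied by relative depth, these 4 values lay between 0.00853 and 0.00873, so each stands for the same number of fragments, the lowest seen. The 10 other PAX and ZIC genes, among them PAX6 and ZIC2, stayed below 1 FPKM in all 9 libraries, and none was tested.

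**Figure D3:**
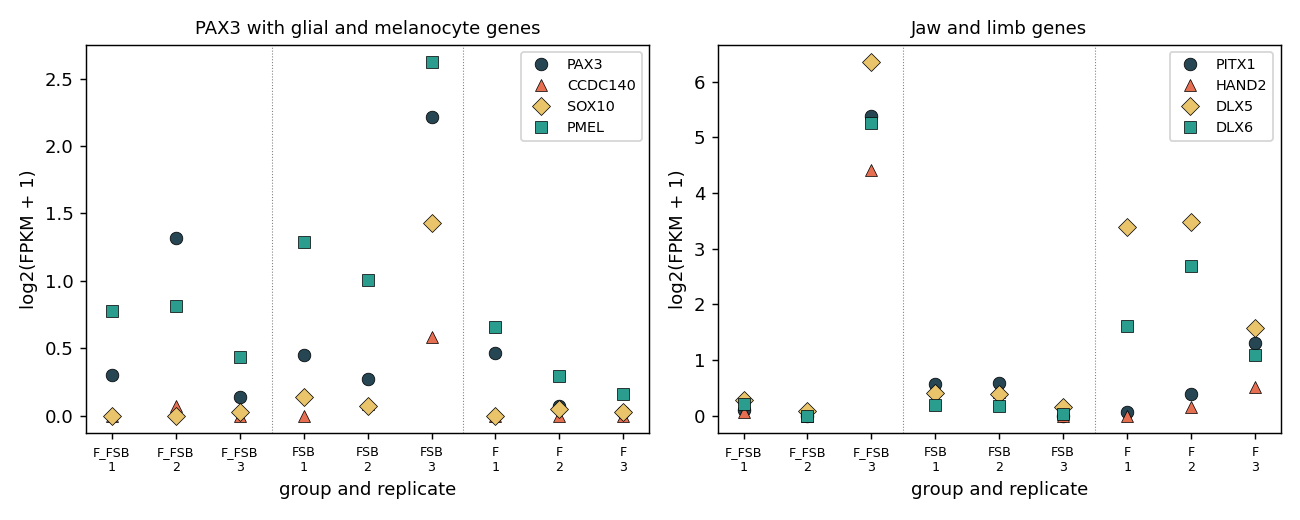
Log2(FPKM + 1) in each library of F_FSB, FSB and F for PAX3 with CCDC140, SOX10 and PMEL (left) and for PITX1, HAND2, DLX5 and DLX6 (right). PAX3 and SOX10 peak in FSB replicate 3, at 3.63 and 1.69 FPKM, and the jaw and limb genes peak in F_FSB replicate 3.

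Across the 5 members tested, FSB minus F gave 2 higher (ALX1 and ALX4), 1 lower (PAX9) and 2 not past the threshold. ALX4 and PAX9 were tested only because of the groups where they were high, so the counts and ranks here are descriptions and not support. Of all genes tested 28.5% were higher and 13.4% lower in FSB, 41.9% in either direction, so the members' 3 of 5 is read against a background of that size. F_FSB minus FSB gave 0 higher, 2 lower (ALX1 and ALX4) and 3 not past the threshold, against 13.7% higher, 28.2% lower and 41.8% in either direction. The median difference of the 5 members was 0.67 in FSB minus F and -0.57 in F_FSB minus FSB, beside 0.14 and -0.13 over all genes tested. Scaling by median ratios moved the all-gene median of F_FSB minus FSB to 0.011 and that of FSB minus F to -0.0031, and the split of calls to 2381 higher and 2494 lower in FSB minus F and 2544 higher and 2488 lower in F_FSB minus FSB, against 3763 and 1773, and 1805 and 3722, as deposited. The calls of ALX1, ALX4 and PAX9 held under that scaling, quantile normalization and scaling to the same sum. By size, 1.11% of genes tested changed as much as ALX4 between FSB and F, 4.57% as much as ALX1 and 6.94% as much as PAX9. The comparisons share the FSB libraries, so their opposite signs are not independent. Libraries of FSB and F did not overlap for 3 of the 5 members, against 57.9% of genes tested, and those of F_FSB and FSB for 2, against 55.8%.

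F_FSB and F, which ended in the same medium, did not differ past the threshold in any of the 5 members, and none had an unadjusted p below 0.05 (limma). In all, 0.00757% of genes tested passed, which is 1 gene. The differences were 0.53 for ALX1, 0.33 for ALX4, 0.34 for PRRX1, 0.10 for PRRX2 and -0.64 for PAX9, with BH-adjusted p from 0.566 to 0.965 (limma). The 95% intervals ran from -0.27 to 1.33 for ALX1, -1.27 to 1.93 for ALX4 and -1.59 to 0.30 for PAX9, so differences of 1 on the log2 scale were not excluded. Libraries overlapped between these groups for all 5 members, against 13.0% of genes tested without overlap. ALX4 in F_FSB rested on replicate 3, and without it the difference from F was -0.12.

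**Figure D4:**
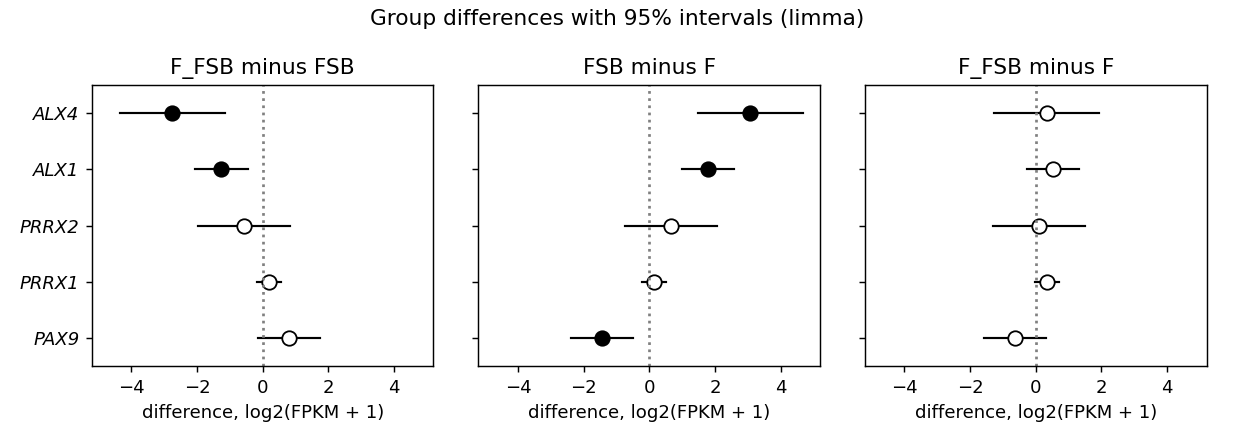
Differences in log2(FPKM + 1) between groups (x axis) for the 5 members tested, with 95% intervals from limma; filled points passed a BH-adjusted p of 0.05. ALX4 and ALX1 lie below 0 in F_FSB minus FSB and above 0 in FSB minus F, and every interval of F_FSB minus F includes 0. ALX4 and PAX9 were tested only because of the groups where they were high.

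Libraries of one medium differed from each other in which members were raised or lowered. Each library was set against the mean of the other 2 of its group on the log2(FPKM + 1) scale. In FSB replicate 3, ALX1 was higher by 1.11 and PAX3 by 1.86, while ALX4 differed by -2.60 and SHOX2 by -1.17. As large a difference was seen in that library for 1.94%, 0.590%, 0.363% and 1.75% of genes tested. PRRX1 and PAX9 differed there by -0.05 and -0.16. In F_FSB, replicate 1 was low in PRRX2 and PAX9, by -1.71 and -1.37, and replicate 2 was high in both, by 1.60 and 1.06. The members thus did not vary as a block between cultures of one medium. With 3 libraries a group, no correlation is given.

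**Figure D5:**
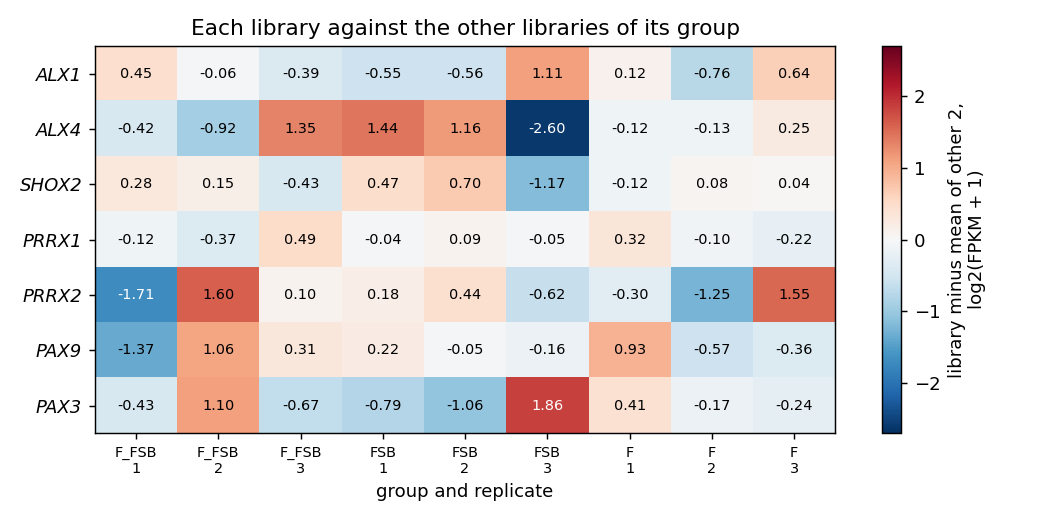
Each library's log2(FPKM + 1) minus the mean of the other 2 libraries of its group, for the 7 members above 0.02 FPKM, in F_FSB, FSB and F (columns; values printed in the cells). FSB replicate 3 holds the most extreme cell, -2.60 for ALX4, beside 1.86 for PAX3 and 1.11 for ALX1.

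Promoter windows from RefSeq (GRCh38.p14, 300 bases around a gene's start) were matched by symbol for 7 of the 9 members, with 8 windows in all. ALX1 and ALX4 had no entry. The windows of 4 members are shown because these carry the contrasts above: PRRX1 is abundant in every medium, SHOX2 and PAX3 ran opposite ways in FSB replicate 3, and PAX9 was lower in FSB than in F. Capitals mark each match to CCAAT, a common promoter element, on either strand.
PRRX1, chr1:170663881-170664180, + strand, GRCh38.p14: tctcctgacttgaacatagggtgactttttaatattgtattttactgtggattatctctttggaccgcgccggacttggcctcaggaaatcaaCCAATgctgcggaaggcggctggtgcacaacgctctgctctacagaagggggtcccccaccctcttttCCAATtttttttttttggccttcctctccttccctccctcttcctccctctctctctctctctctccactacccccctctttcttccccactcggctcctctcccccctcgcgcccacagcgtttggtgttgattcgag
SHOX2, chr3:158106114-158106413, - strand, GRCh38.p14: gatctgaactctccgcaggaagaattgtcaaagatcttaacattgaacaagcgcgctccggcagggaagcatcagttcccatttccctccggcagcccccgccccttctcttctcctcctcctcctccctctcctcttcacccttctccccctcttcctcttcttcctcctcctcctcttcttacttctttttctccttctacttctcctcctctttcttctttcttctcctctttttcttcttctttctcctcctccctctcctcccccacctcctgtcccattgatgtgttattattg
PAX3, chr2:222298949-222299248, - strand, GRCh38.p14: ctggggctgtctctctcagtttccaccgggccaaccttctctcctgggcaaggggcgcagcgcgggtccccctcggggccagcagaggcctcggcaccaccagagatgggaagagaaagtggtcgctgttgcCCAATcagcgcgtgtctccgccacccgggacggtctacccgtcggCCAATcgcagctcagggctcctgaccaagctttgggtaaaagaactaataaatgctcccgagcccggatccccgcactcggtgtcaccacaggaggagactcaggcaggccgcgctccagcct
PAX9, chr14:36661610-36661909, + strand, GRCh38.p14: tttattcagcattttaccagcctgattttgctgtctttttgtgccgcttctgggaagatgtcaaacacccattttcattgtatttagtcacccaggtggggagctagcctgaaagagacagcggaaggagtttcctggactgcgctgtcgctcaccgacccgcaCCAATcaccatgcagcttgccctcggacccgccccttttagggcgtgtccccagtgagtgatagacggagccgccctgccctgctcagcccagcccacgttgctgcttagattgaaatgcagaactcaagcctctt
Of the 35116 promoter windows of the same length, 34.6% held CCAAT, counted by window and not by gene. Counted by gene, CCAAT was found in the windows of 5 of the 7 members, for PAX9 in the window shown alone. It occurred at bases 94 and 162 of the PRRX1 window, 133 and 178 of that of PAX3 and 165 of that of PAX9, counted from its first base, and not in the SHOX2 window. The paired-class homeodomain dimer sites, TAAT and ATTA separated by 3 or 2 bases of any kind, matched none of the 8 windows on either strand, and 0.365% and 0.450% of all windows. The SMAD-bound CAGA box AGCCAGACA matched none either, and 0.288% of all windows, and TATAAA matched none, against 11.5%. The GC content was 53.0% for PRRX1, 64.7% for PAX3, 51% for SHOX2 and 54.0% for this PAX9 window, against a median of 58.7%. A second PAX9 window, chr14:36657318-36657617 on the + strand and so upstream of the one shown, held none of the 5 motifs. The PAX9 window shown is thus that of a start further along the gene.

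Among other homeobox genes of the paired type, SHOX, the human paralog of SHOX2, reached at most 0.692 FPKM. The organizer factor GSC passed 1 FPKM in F_FSB replicate 3 alone, at 2.45 FPKM, and PITX1 did so there and in F replicate 3. Of 26 genes reported as targets or partners of the members, 18 were tested. Of these, 2 were higher and 9 lower in FSB than in F, against 28.5% and 13.4% of all genes tested, and 5 were higher and 3 lower in F_FSB than in FSB, against 13.7% and 28.2%. TWIST1, a crest and mesenchyme factor, was at 32.4 ± 8.43 FPKM in F_FSB, 96.0 ± 3.62 in FSB and 28.7 ± 7.26 in F (SD, n = 3 each). TWIST1 was higher by 1.74 in FSB than in F (limma, BH-adjusted p = 0.000954). MET, a receptor gene that PAX3 activates in muscle precursors, was at 9.73 ± 1.69 FPKM in F_FSB, 0.458 ± 0.158 in FSB and 7.31 ± 5.99 in F, and fell in FSB relative to F (log2 difference -2.29; limma, BH-adjusted p = 0.00357). LHX8, an oral mesenchyme factor, was at 0.427 ± 0.450 FPKM in F_FSB, 0.0905 ± 0.0955 in FSB and 9.30 ± 9.05 in F (SD, n = 3 each). Only the F libraries reached 1 FPKM of LHX8, so it was tested only because of the group where it was high, and its test is not used. The counts of this list still include LHX8, as well as OSR2 and FGFR4, which were also tested only because of the group where they were high.

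Markers of tissues where these members are also used were counted by the same test. Of 14 cranial crest genes 12 were tested, with 5 higher, 1 lower and 6 not past the threshold in FSB minus F, and 1 higher, 6 lower and 5 not past it in F_FSB minus FSB. Over all genes tested the shares were 28.5% higher and 13.4% lower in FSB minus F, and 13.7% higher and 28.2% lower in F_FSB minus FSB. TFAP2A was at 21.0 ± 8.67 FPKM in F_FSB, 60.7 ± 4.79 in FSB and 15.1 ± 5.79 in F, and ETS1 at 15.0 ± 4.25 FPKM in F_FSB, 56.1 ± 13.7 in FSB and 14.2 ± 1.22 in F (SD, n = 3 each; log2 differences 2.00 and 1.89 in FSB minus F; limma, BH-adjusted p = 0.00261 and 0.000689). SOX8, counted among these calls, was at 0.845 ± 0.456 FPKM in F_FSB, 8.60 ± 2.90 in FSB and 0.744 ± 0.562 in F (SD, n = 3 each). SOX8 reached 1 FPKM in 5 libraries, every FSB library among them. Without FSB it would not have been tested, so its test is not used. The summed level of the crest list ran from 210 to 305 FPKM in F_FSB, 453 to 521 in FSB and 238 to 296 in F, and the part of crest markers in the ALX results was not tested. NGFR, the gene of the sorting marker CD271, was the largest single part of that sum in FSB, but not in F_FSB or F. NGFR was at 4.89 ± 3.01 FPKM in F_FSB, 120 ± 15.3 in FSB and 20.0 ± 20.4 in F (SD, n = 3 each). DLX1, the crest gene that ran the other way, was at 33.4 ± 9.08 FPKM in F_FSB, 13.1 ± 6.65 in FSB and 56.6 ± 15.7 in F (SD, n = 3 each), and fell in FSB relative to F (log2 difference -2.14; limma, BH-adjusted p = 0.00492). SNAI2, SOX9, TFAP2B, DLX2, DLX5 and DLX6 did not pass in FSB minus F. Of 13 forebrain and dorsal neural tube genes only NES, also made by crest cells, was tested, higher in FSB by 2.04 than in F (limma, BH-adjusted p = 0.0061), and 6 were at 0 throughout.

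Of 11 myogenic and paraxial mesoderm genes 3 were tested (MEOX1, MEOX2 and DES) and none passed in any comparison (limma). Before adjustment, DES in FSB minus F and DES and MEOX1 in F_FSB minus F were below the threshold of 0.05. DES reached 1 FPKM in 5 libraries, every F library among them, and would not have been tested without F. MYF5 and MYOG were at 0 in all 9 libraries. The summed level of this list ran from 4.28 to 25.0 FPKM in F_FSB, 10.7 to 14.3 in FSB and 8.56 to 98.7 in F. Of 10 sclerotome and pharyngeal endoderm genes, tissues that use PAX9, only FOXC2 was tested. It was at 12 ± 2.14 FPKM in F_FSB, 4.08 ± 0.169 in FSB and 8.45 ± 4.74 in F (SD, n = 3 each), and exceeded its FSB level in F_FSB by 1.34 on the log2 scale (limma, BH-adjusted p = 0.00805). PAX1, the sclerotome paralog of PAX9, and the endoderm factors FOXA2 and NKX2-1 were at 0 in every library. Of 10 limb and lateral plate genes none was tested. Their sum was 61.2 FPKM in F_FSB replicate 3, mainly PITX1 and HAND2, and 0.290 and 0.138 FPKM in F_FSB replicates 1 and 2, against at most 1.18 in FSB and 2.08 in F. Of 6 melanocyte genes 2 were tested, MITF and PMEL. PMEL reached 1 FPKM only in the FSB libraries, so it was tested only because of the group where it was high, and its test is not used. Its means were 0.603 ± 0.222 FPKM in F_FSB, 2.53 ± 2.28 in FSB and 0.308 ± 0.242 in F (SD, n = 3 each), and without FSB replicate 3 the FSB values were 1.44 and 1.01 FPKM, against at most 0.580 FPKM in F.

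The genes whose pattern over the 9 libraries was most like that of a member were found among 9296 genes by the root mean square (RMS) difference in log2(FPKM + 1), each gene centred on its own mean. ISYNA1, DUSP15 and CPNE2 were nearest to ALX1, at RMS differences of 0.26 to 0.29, beside an RMS of 0.85 of ALX1 about its own mean. TNFRSF1B, SLC7A5 and PTP4A3 were nearest to ALX4, at 0.56 to 0.64 beside 1.60. For PAX9 they were SGK1, TMTC1 and LRP1, at 0.36 to 0.40 beside 0.755. For PRRX2 they were DUSP6, IL17RD and SNRPA1, at 0.43 to 0.47 beside 0.77, and for PRRX1 PTPN21, ATP6AP1 and TRIM32, at 0.09 to 0.11 beside 0.22. These are descriptions over 9 libraries that share the same 3 groups.

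Genes next to the members on the chromosome did not all run with them. EXT2, 15297 bases from ALX4, was at 49.8 ± 14.8 FPKM in F_FSB, 30.3 ± 3.14 in FSB and 43.7 ± 2.43 in F, and CD82, on its other side, at 14.3 ± 4.41 FPKM in F_FSB, 2.46 ± 0.634 in FSB and 17.3 ± 11.8 in F (SD, n = 3 each). CD82 was lower in FSB than in F by 2.23 (log2 difference -2.23; limma, BH-adjusted p = 0.0041) and EXT2 was above its FSB level in F_FSB by 0.67 (limma, BH-adjusted p = 0.0197), the opposite direction from ALX4. The EXT2 call was lost without FSB replicate 1 or 2, at BH-adjusted p (limma) of 0.07 and 0.0615, and its difference was 0.44 without F_FSB replicate 3. SLC25A21, 113 bases past PAX9, was at 0.593 ± 0.324 FPKM in F_FSB, 0.417 ± 0.0495 in FSB and 1.02 ± 0.418 in F and was too low to be tested. GORAB, next to PRRX1, was at 5.87 ± 0.345 FPKM in F_FSB, 5.29 ± 0.293 in FSB and 5.67 ± 0.455 in F, and no comparison passed. Transcripts that overlap PRRX1 and PRRX2 in the tables stayed at or below 0.969 and 0.652 FPKM in all libraries.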

How the data were processed

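Each library has a Cufflinks gene table whose FPKM values are used as the authors deposited them, per the file headers. They are normalized to the library's own mapped fragments. Per the submitters' processing notes, the tools were TopHat2 2.0.12 and Cufflinks 2.1.1 on GRCh37. The sources used here do not give the annotation, strand setting or filters. Starts count from 0 in the tables and are printed 1-based.

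The 95 loci whose status was not OK in some library were left out. The fit used log2(FPKM + 1) of all 9 libraries, 3 group means and limma 3.58.1 (R 4.3.3) with its intensity trend, and the test was checked on simulated data. Any pair of libraries shared at most 0.00586% of nonzero values. Tables were joined with pandas 2.3.3 under Python 3.11.15, and matplotlib 3.10.9 drew the plots. Overlapping genes come from GENCODE on GRCh37, promoters from RefSeq.

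The text names the 9 members, up to 4 genes per list and comparison with the smallest adjusted p below 0.05, the 3 genes most like each tested member, and neighbours. A few genes were singled out after their values were seen, as stated there. Members and lists were chosen with earlier results of these data known. Some genes of the lists are not reported here.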

Additional observations from a re-analysis of the deposited data

How the results depend on the processing

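The results of the tested members, and of the other genes whose call the text gives, were recomputed under 22 alternatives, 1 of them (genes of 1 FPKM in any 1 library) chosen after seeing the data. Leaving out 1 library at a time gave 1 to 3 members past the threshold in F_FSB minus FSB (2 with all libraries), 2 to 3 in FSB minus F (3) and 0 in F_FSB minus F (0). No other pseudocount, filter, scaling, shrinkage or weighting changed these counts. With the replicate number as a block (replicate block), FSB minus F had 2 members past the threshold, because PAX9 kept its difference of -1.44 with a BH-adjusted p (limma) of 0.0537. Deviations of same-numbered libraries correlated between -0.136 and 0.292, so the numbers are not treated as pairs. Among the members, signs turned only for differences that did not pass: PRRX1 in FSB minus F with scaling by median ratios (-0.019), PRRX2 in F_FSB minus FSB without F_FSB replicate 1 (0.0037; leaving out 1 library gave -1.10 to 0.0037), ALX4 in F_FSB minus F without F_FSB replicate 3 (-0.12; -0.12 to 0.64), and PRRX2 in F_FSB minus F with array weights (-0.32), without F replicate 2 (-0.31) and without F_FSB replicate 2 (-0.43; -0.43 to 0.67). The cause was not tested. Depth limits how well low values are measured, and its part in the values of SHOX2, PAX3, PAX7 and ZIC1 was not tested. F_FSB replicate 2 is the shallowest library, and PAX3 stood at 1.49 FPKM there.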
